A study of Mus musculus with 83 samples.

Results

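The messenger RNA of 10 cell cycle genes, 8 cyclins and 2 cyclin-dependent kinases, was followed in single mouse embryos. The genes are Ccnd1, Ccnd2, Ccnd3, Ccne1, Ccne2, Ccna2, Ccnb1, Ccnb2, Cdk1 and Cdk2. They were chosen by name, as the classical cyclins and their main partner kinases, with earlier results of these data known. All 10 are among the 23845 genes of the embryo expression table. Randomization put males aged 8 to 12 weeks either into warm housing for 7 days, where each day had 8 h of 35 °C followed by 16 h of 25 °C, or into sham housing kept steadily at 21 °C. Their sperm was used for fertilization, and polyadenylated RNA was sequenced from single embryos. At the 4-cell stage there were 16 embryos sired with sham sperm, called control embryos here, and 18 sired with sperm of heated males, called heat embryos. Morulae numbered 22 control and 21 heat. The embryos themselves were not the animals heated. The strain, father, mother, litter and day of an embryo are not given in the labels used here, so a p-value measures the spread between embryos, and some embryos may share a parent.

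Cyclins switch on cyclin-dependent kinases, and each type acts at its own point of the cell cycle. D-type cyclins work with Cdk4 and Cdk6 in early G1, and E-type cyclins with Cdk2 at the entry into DNA synthesis. Cyclin A2 serves DNA synthesis and then the approach to mitosis, with Cdk2 and Cdk1, and B-type cyclins with Cdk1 drive mitosis. In the preimplantation mouse embryo the first cleavages run with short gap phases on maternal stores, and the embryonic genome supplies transcripts from the 2-cell stage on. Cyclin proteins are destroyed in each cycle, so a transcript level is not a measure of kinase activity, and the point of the cell cycle at which an embryo was lysed is not recorded in the labels.

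Levels are given as TPM (a scaled share of an embryo's mRNA corrected for transcript length), so that they can be compared between genes. Each embryo's values sum to the same total whatever the number of its cells or the amount of its RNA. An embryo holds several blastomeres, so fewer cells with a transcript and less of it per cell cannot be told apart. The read depth is unknown, since TPM does not keep it. The number of detected genes, those above 0 TPM, was 8359 ± 1098 (SD, n = 16) in 4-cell control, 8877 ± 979 (SD, n = 18) in 4-cell heat, 10299 ± 1411 (SD, n = 22) in morula control and 10951 ± 855 (SD, n = 21) in morula heat embryos, and 8 of the 77 embryos had under 7500. The stage labels fitted their markers: the summed level of 7 oocyte and early cleavage genes had group medians of 1897 and 2121 TPM at the 4-cell stage and 175 and 206 TPM in morulae, while 7 outer lineage and morula genes went from 439 and 484 TPM to 1664 and 2295 TPM. The first sum was mostly Obox6 (medians 1240 and 1460, then 132 and 189 TPM). The second was mostly Pou5f1 (427 and 448, then 1306 and 1550 TPM), which is not particular to the outer lineage. The outer lineage gene Cdx2 went from medians of 0 and 0.07 to 18.1 and 48.2 TPM. Every gene of the cumulus and granulosa list (10 genes) and of the sperm list (6 genes) had a median of 0 in each group. Of 4 blood genes in the table, Hba-a2 alone had medians above 0, at 124 and 140 TPM in 4-cell control and heat embryos and at 35.3 and 23.6 TPM in morulae, and its part in the results was not tested.

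Promoter sequences from RefSeq (build GRCm38.p6, the assembly of mm10) were found for 6 of the 10 genes, in 7 windows. Those of Ccnb1, Ccnb2 and Cdk1, the mitotic cyclins and their kinase, are printed because their levels correlated from embryo to embryo (below). Such correlation was not particular to them. Both start sites of Ccnd3 are printed because this gene rose from the 4-cell to the morula stage in both sire groups. Each line gives the 250 bases before the annotated transcription start, on the gene's own strand. They lie at chr13:100786487-100786736 (minus strand) for Ccnb1, chr9:70421555-70421804 (minus) for Ccnb2, chr10:69352913-69353162 (minus) for Cdk1, and chr17:47504801-47505050 and chr17:47593217-47593466 (plus) for Ccnd3. Capitals mark 3 motifs searched on both strands: CCAAT (the CCAAT box, read ATTGG on the other strand), TTTGAA (a core form of the cell cycle homology region, read TTCAAA) and TTTNNCGC (an E2F-like form), any of which may overlap another.
Ccnb1: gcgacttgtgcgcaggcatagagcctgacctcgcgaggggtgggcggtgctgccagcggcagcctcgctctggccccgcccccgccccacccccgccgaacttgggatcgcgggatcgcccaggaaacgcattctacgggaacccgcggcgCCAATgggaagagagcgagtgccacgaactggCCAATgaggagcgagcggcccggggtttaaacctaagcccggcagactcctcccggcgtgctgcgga
Ccnb2: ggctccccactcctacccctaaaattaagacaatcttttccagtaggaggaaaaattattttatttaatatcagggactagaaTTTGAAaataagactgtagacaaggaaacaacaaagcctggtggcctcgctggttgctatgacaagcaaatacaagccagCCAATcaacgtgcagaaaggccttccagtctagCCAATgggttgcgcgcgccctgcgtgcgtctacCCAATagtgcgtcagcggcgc
Cdk1: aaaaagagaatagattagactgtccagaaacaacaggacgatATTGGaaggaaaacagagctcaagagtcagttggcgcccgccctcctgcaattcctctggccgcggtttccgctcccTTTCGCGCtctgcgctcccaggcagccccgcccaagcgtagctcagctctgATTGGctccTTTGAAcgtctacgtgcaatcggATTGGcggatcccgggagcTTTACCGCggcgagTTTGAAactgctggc
Ccnd3 (first start): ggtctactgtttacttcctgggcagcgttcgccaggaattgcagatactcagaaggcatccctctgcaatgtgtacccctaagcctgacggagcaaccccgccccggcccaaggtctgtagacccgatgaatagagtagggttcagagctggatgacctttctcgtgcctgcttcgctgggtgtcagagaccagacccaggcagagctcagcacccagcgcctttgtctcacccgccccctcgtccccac
Ccnd3 (second start): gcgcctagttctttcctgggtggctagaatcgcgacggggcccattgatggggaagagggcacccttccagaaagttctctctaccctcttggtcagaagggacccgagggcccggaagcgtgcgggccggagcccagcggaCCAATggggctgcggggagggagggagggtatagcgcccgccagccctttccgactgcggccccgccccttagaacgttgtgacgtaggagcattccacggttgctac

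In the 300 bases searched, which run 50 bases past the start, the Ccnb1 promoter held CCAAT at 2 places, Ccnb2 at 3 and Cdk1 at 3. Of the 32851 mouse promoters in the same table, 37.4% held CCAAT at least once, 11.7% at 2 or more places and 3.37% at 3 or more. In Ccnb2 one CCAAT began 87, one 54 and one 21 bases before the start. TTTGAA stood at 2 places in Cdk1, beginning 71 and 15 bases before the start. It also stood at 2 in Ccnb2, beginning 167 bases before the start and at base 5 after it. Of all promoters, 17.9% held TTTGAA at least once and 2.31% at 2 or more places. TTTNNCGC stood at 2 places in Cdk1 and 1 in Cdk2, against 5.17% of all promoters with it at least once and 0.326% at 2 or more places. The first Ccnd3 window and the Ccne1 window held none of the 3 motifs, and the second Ccnd3 window held 1 CCAAT, as did Cdk2. Over the 77 embryos, group means subtracted, Ccne1 had a Pearson's r of 0.81 with Ccnb1, beside 0.70 for Ccnb2 with Cdk1. A link between motifs and correlation was not tested. These matches describe letters in a window and say nothing of which factor binds there.

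The order of the 10 genes by level was much alike in the 4 groups. Ccnb1 was the most abundant by median in each group and stood above Cdk1, next in order, in 16 of 16, 18 of 18, 19 of 22 and 20 of 21 embryos (4-cell control, 4-cell heat, morula control and morula heat, the order used throughout). Ccna2, Ccnb2 and Ccne1 came next and changed places between groups: Ccna2 was above Ccnb2 in 11 of 16 4-cell control and 12 of 21 morula heat embryos, and below it in 12 of 22 morula control embryos. Ccnd3 followed these 5 by median in every group but the morula controls, where it stood just above Ccne1 (29.7 against 28.7 TPM). Cdk2 came next in each group. Ccnd1, Ccne2 and Ccnd2 stood near the lower limit of the data.

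**Figure D1:**
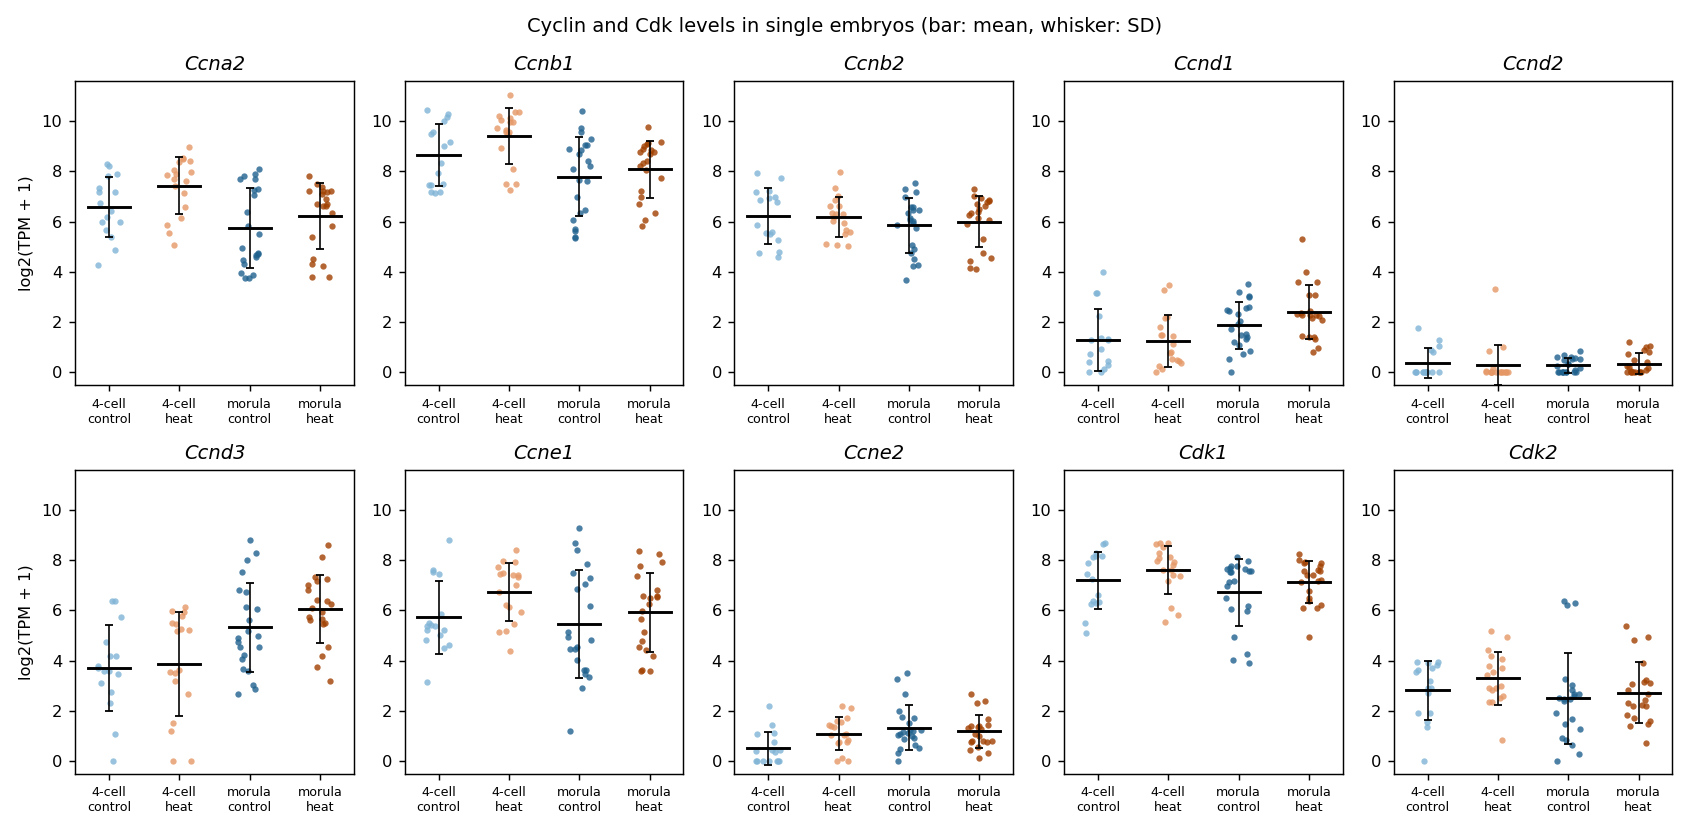
Level of each of the 10 genes as log2(TPM + 1), with 1 point per embryo in the 4 groups (16, 18, 22 and 21 embryos), a bar at the mean and a whisker of 1 SD. Every gene's groups overlap; Ccnd3 sits higher in morulae, and Ccnb1 and Ccna2 sit highest in 4-cell heat embryos.

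Within each cyclin type 1 member made up most of the transcript. Ccnd3 made a median of 90.3%, 90.3%, 92.9% and 91.1% of the summed D-type TPM. Ccne1 made 99.5%, 99.2%, 97.3% and 98.4% of the E-type TPM. Ccnb1 made 84.0%, 90.5%, 81.9% and 81.1% of the B-type TPM, and Cdk1 made 96.2%, 95.9%, 97.5% and 96.6% of the sum of Cdk1 and Cdk2. The share of Ccnd3 was over 50% in 15 of 15 4-cell control embryos with any D-type TPM, in 15 of 18 4-cell heat embryos and in all 22 and 21 morulae. Other partners of these genes, such as the third B-type cyclin Ccnb3, are not in these sums.

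The D-type cyclins, which link growth signals to the start of the cycle, had their main member in Ccnd3. It ranged from 0 to 81.7 TPM (median 11.5) in 4-cell control and from 0 to 69.0 TPM (median 23.5) in 4-cell heat embryos. In morulae it ranged from 5.42 to 440.2 TPM (median 29.7) in control and from 8.07 to 385 TPM (median 67.3) in heat embryos. Ccnd3 is listed at 0 in 1 control and 2 heat embryos of the 4-cell stage and in no morula. Those embryos had 6303, 7234 and 7267 detected genes, all under 7500. A listed 0 can also be a failed estimate. The highest morulae lie above all 4-cell embryos, and the lowest lie well inside the 4-cell range.

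Ccnd1 was far lower. Its median was 1.18 TPM in 4-cell control embryos (0 to 15.1) and 0.970 TPM in 4-cell heat embryos (0 to 10.3). In morulae the median was 2.56 TPM in control (0 to 10.5) and 3.87 TPM in heat embryos (0.780 to 39.1). It reached 1 TPM in 8 of 16, 9 of 18, 18 of 22 and 19 of 21 embryos. Ccnd2 was above 0 in 5 of 16, 5 of 18, 13 of 22 and 13 of 21 embryos, with medians of 0, 0, 0.160 and 0.120 TPM and a highest value of 8.95 TPM in a 4-cell heat embryo. It was the only 1 of the 10 genes to miss the filter on low values (at least 1 TPM in at least 50% of the embryos of a group compared), so 9 genes were tested.

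The E-type cyclins, the partners of Cdk2 at the start of DNA synthesis, were represented by Ccne1. In 4-cell embryos Ccne1 ranged from 7.81 to 450.4 TPM (median 40.6) in control and from 19.8 to 334 TPM (median 145) in heat embryos. In morulae it ranged from 1.32 to 619 TPM (median 28.7) in control and from 11.0 to 327 TPM (median 74.9) in heat embryos. The control embryos reached both the lowest and the highest values at each stage. Ccne2, the second E-type gene, had medians of 0.305, 1.09, 1.20 and 1.14 TPM. It was above 0 in 9 of 16, 16 of 18, 21 of 22 and 21 of 21 embryos, and its highest value was 10.4 TPM, in a morula control embryo.

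Ccna2, the cyclin of DNA synthesis and early mitosis that somatic cells use, ranged from 18.5 to 317 TPM (median 96.3) in 4-cell control and from 32.7 to 503 TPM (median 218) in 4-cell heat embryos. In morulae it ranged from 12.6 to 275 TPM (median 37.6) in control and from 12.8 to 224 TPM (median 103) in heat embryos. All 77 embryos held it, and the 4 ranges overlap over most of their length.

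Ccnb1, the main mitotic cyclin, ranged from 140.1 to 1401 TPM (median 421) in 4-cell control and from 152 to 2102 TPM (median 826) in 4-cell heat embryos. In morulae it ranged from 39.7 to 1342 TPM (median 284) in control and from 55.3 to 869.7 TPM (median 336) in heat embryos. The lowest morulae fall below every 4-cell embryo. RefSeq lists a transcribed pseudogene of Ccnb1, and the treatment of reads shared with such a copy is not stated in the labels, so its level is uncertain to that extent. Ccnb2, the second B-type cyclin, was steadier: its medians were 82.8, 74.9, 65.4 and 80.7 TPM, with a range over all groups from 12.0 to 249 TPM.

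Cdk1, the kinase that mitosis depends on, had medians of 161, 233, 162 and 169 TPM. It ranged from 33.1 to 413 TPM in 4-cell control, 44.9 to 416 TPM in 4-cell heat, 14.1 to 276 TPM in morula control and 30.0 to 299.7 TPM in morula heat embryos. Cdk2, the partner of cyclins E and A, had medians of 7.31, 8.25, 4.60 and 4.39 TPM. Its highest value, 82.1 TPM, was in a morula control embryo. In that group Cdk2 was at 77.8, 73.1 and 82.1 TPM in replicates 19, 21 and 22 and at most 8.64 TPM in the others. The same embryos had the group's highest Ccne1, Ccne2 and Ccnd3. No fit or correlation left all of them out. The ranges of both kinases overlap between sire groups at each stage.

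The genes differed in how far they spread from embryo to embryo. Ccne1 in morula control embryos had an SD of 2.15 on the log2(TPM + 1) scale, larger than in 99.5% of the 631 genes of similar mean level, whose median SD was 1.03. Its highest values there were in replicates 19, 21 and 22, which also had the highest Cdk2. Ccnb1 also spread widely for its level: its SD was 1.25, 1.11, 1.56 and 1.13, and 95.1%, 91.1%, 92.4% and 91.3% of genes of similar level had a smaller one. Ccnb2 was nearer to its peers, with an SD of 1.10, 0.80, 1.08 and 1.02, and 70.6%, 38.1%, 55.0% and 70.4% of such genes had a smaller one. Ccnd3 spread most in 4-cell heat embryos, with an SD of 2.07, where it is listed at 0 in 2 embryos.

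The first comparison asks whether sperm of heated males gave 4-cell embryos with other cyclin and kinase levels. None of the 9 genes tested passed the test at a Benjamini-Hochberg adjusted p under 0.05 with limma over all 7322 genes, against a background of 0% of all genes called. At an unadjusted p under 0.05 there were 3 of the 9, all higher in heat embryos, against 9.98% of all genes higher and 1.52% lower. They were Ccne1 at 1.02 (SE 0.42, limma, adjusted p = 0.387), Ccna2 at 0.83 (SE 0.38, limma, adjusted p = 0.404) and Ccne2 at 0.58 (SE 0.24, limma, adjusted p = 0.387), as log2 changes on the log2(TPM + 1) scale, which understates the change of low genes such as Ccne2. Ccne2 entered this test through the heat embryos alone, since 11 of 18 of them but 4 of 16 control embryos reached 1 TPM, so its value is a description and the count of 3 leans on the filter for that gene. Ccnb1 was at 0.76 (SE 0.38, limma, adjusted p = 0.433). Values above 0 were common in these embryos: the median over all genes tested was 0.26 and 74.1% of them were above 0, beside 7 of the 9 genes and a median of 0.49.

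Set against that common shift, Ccne1 stood 0.76, Ccna2 0.57, Ccnb1 0.49, Ccne2 0.32, Cdk2 0.23 and Cdk1 0.17 above the median gene. Ccnd3 stood 0.08, Ccnb2 0.29 and Ccnd1 0.33 below it. The 95% interval of Ccnd3 ran from -1.07 to 1.44 and that of Ccnb2 from -0.68 to 0.62. The heat embryos of this stage also had more detected genes by mean (8877 against 8359), and with detected genes as a covariate, Ccne1 was at 0.59, Ccna2 at 0.38 and Ccnb1 at 0.33, and Ccnd3 at -0.63.

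The second comparison asks the same of morulae. With limma 0 of the 9 genes passed, against 0% of the 7897 genes tested, and 0 reached an unadjusted p under 0.05 with limma, where 6.05% of all genes did. Of the 9, 8 were above 0, with a median of 0.41 beside 0.13 for all genes and 67.8% of all genes above 0. The largest value was that of Ccnd3 at 0.73 (SE 0.46, limma, adjusted p = 0.802), then Ccnd1 at 0.54 (SE 0.31, limma, adjusted p = 0.795). Ccne1 was at 0.48, Ccna2 at 0.47, Cdk1 at 0.41, Ccnb1 at 0.30, Cdk2 at 0.23, Ccnb2 at 0.15 and Ccne2 at -0.15. Relative to the median gene, Ccnd3 was 0.60 and Ccnd1 0.41 higher and Ccnb2 0.02 higher. With detected genes as a covariate, Ccna2, Ccnb1, Ccnb2, Ccne1, Cdk1 and Cdk2 all lay below 0, between -0.25 and -0.02.

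**Figure D2:**
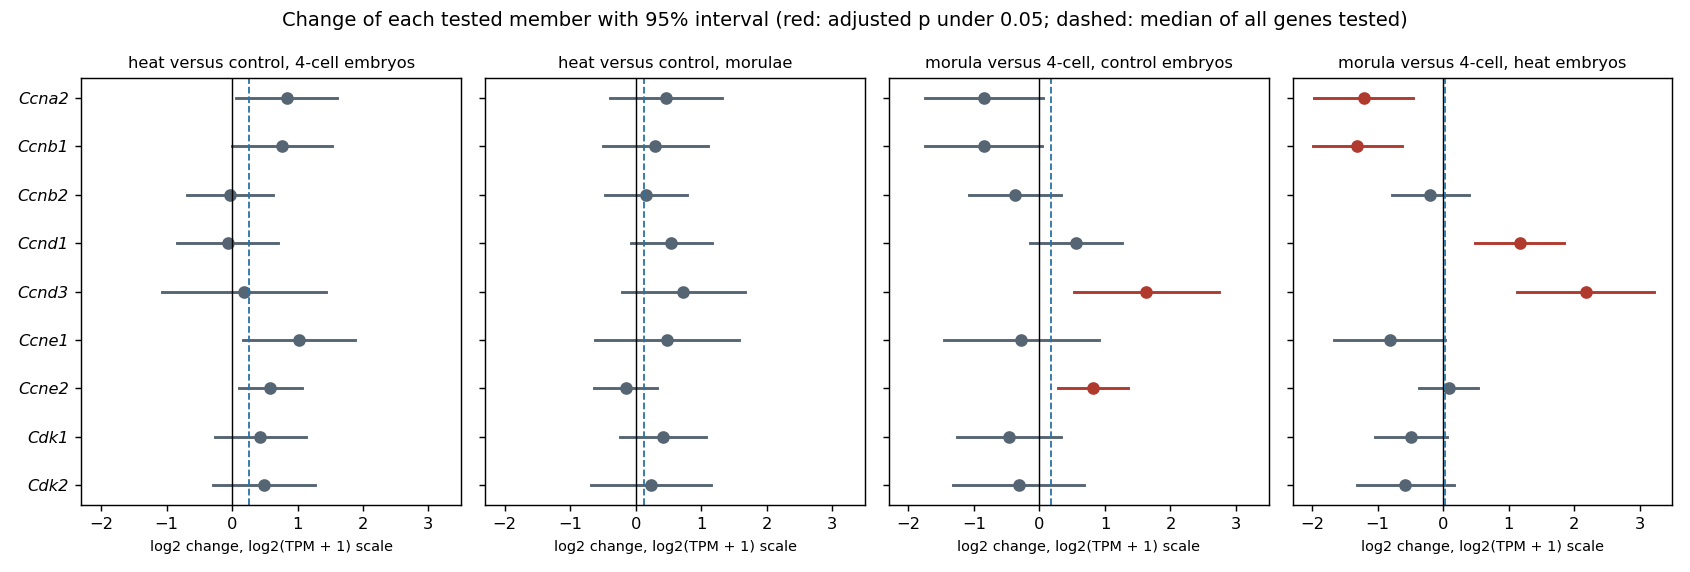
Change of each tested gene on the log2(TPM + 1) scale with its 95% interval in the heat comparisons (first 2 panels) and the stage comparisons (last 2 panels). Red marks an adjusted p under 0.05, and the dashed line is the median of all genes tested; no gene is red in the heat panels, while Ccnd3 is red in both stage panels, at 1.63 and 2.18.

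The change from the 4-cell embryo to the morula was tested in each sire group on its own, so the pair of tests share no embryo. Of the 9 genes, 2 passed in control embryos, both higher (Ccnd3, and Ccne2, which the filter took in through morulae alone), and 4 in heat embryos, 2 higher and 2 lower. The background was large: 46.1% of the 8148 genes tested were called in control embryos (27.2% higher, 18.9% lower) and 50.8% of 8430 in heat embryos (26.1% higher, 24.7% lower). With a further limit of 1 on the size of the log2 change, 1 of the 9 (Ccnd3) and the same 4 were called, against 32% and 33.3% of all genes. The median change over all genes was 0.18 in control and 0.02 in heat embryos, and that of the 9 genes -0.32 and -0.49.

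Ccnd3, the main D-type cyclin, rose in morulae. Its log2 change was 1.63 (SE 0.55, limma, adjusted p = 0.0134) in control and 2.18 (SE 0.52, limma, adjusted p = 0.000555) in heat embryos, or 1.45 and 2.16 above the median gene. The number of detected genes was also higher in morulae. Without the embryos of under 7500 detected genes the change was 0.98 (limma, adjusted p = 0.159) in control and 1.48 (limma, adjusted p = 0.00494) in heat embryos. With detected genes as a covariate it was -0.44 (limma, adjusted p = 0.420) and -0.94 (limma, adjusted p = 0.123), so the sign of the Ccnd3 change depends on this covariate. Ccnd1 rose in heat embryos, at 1.17 (SE 0.34, limma, adjusted p = 0.00362), and was at 0.56 (SE 0.35, limma, adjusted p = 0.184) in control embryos. With the covariate Ccnd1 was at 0.81 (limma, adjusted p = 0.199) in heat embryos.

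Ccnb1 and Ccna2 fell in heat embryos and lay on the same side in control embryos. Ccnb1 fell by 1.31 on the log2 scale (SE 0.34, limma, adjusted p = 0.00122) in heat embryos and was at -0.85 (SE 0.45, limma, adjusted p = 0.114) in control embryos. Ccna2 fell by 1.21 (SE 0.38, limma, adjusted p = 0.00636) in heat embryos and was at -0.84 (SE 0.45, limma, adjusted p = 0.120) in control embryos. In heat embryos both passed under each of 12 alternatives run. In control embryos both passed with each embryo centred on its own mean (Ccnb1 -1.07 and Ccna2 -1.07) and with detected genes as a covariate (-2.39 and -2.50), and Ccnb1 also without the embryos of under 7500 detected genes (-1.24, limma, adjusted p = 0.0422). The covariate cannot separate stage from detection, and the median over all genes with it was -0.45 in control embryos. Stage values with the covariate are therefore descriptions and do not add to the main fit.

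Ccne2 was at 0.82 in control embryos (SE 0.26, limma, adjusted p = 0.00941). It entered that test through the morulae alone, with 15 of 22 of them but 4 of 16 4-cell embryos at 1 TPM or more, so its higher value there follows the filter and is a description. Ccne2 was at 0.08 (SE 0.22, limma, adjusted p = 0.780) in heat embryos. With the covariate it was at 0.13 (limma, adjusted p = 0.723) in control embryos. Its median in TPM there went from 0.305 to 1.20, a low level at which embryos at 0 weigh on the mean. Ccne2 was at 0 in 7 of 16 4-cell and 1 of 22 morula control embryos. Ccne1 was at -0.28 in control and -0.82 (SE 0.42, limma, adjusted p = 0.1004) in heat embryos. Ccnb2 was at -0.37 and -0.20, Cdk1 at -0.47 and -0.49, and Cdk2 at -0.32 and -0.58, none past the threshold. In heat embryos Ccne1 and Cdk1 passed with each embryo centred on its own mean (-0.91 and -0.58) and without the embryos of under 7500 detected genes (-1.04 and -0.85). With detected genes as a covariate, Ccnb2, Ccne1, Cdk1 and Cdk2 were lower in both sire groups and passed: Ccnb2 at -1.48 and -1.34, Ccne1 at -2.28 and -2.84, Cdk1 at -1.89 and -1.93, and Cdk2 at -1.57 and -1.68. The median over all genes under that covariate was -0.45 and -0.55.

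Whether the stage change differed between the sire groups was tested with the interaction over all 77 embryos. None of the 9 genes passed with limma, against 0% of 8689 genes, and 1 of the 9 reached an unadjusted p under 0.05, beside 5.27% of all genes. That gene was Ccne2, whose stage change was smaller in heat embryos by 0.74 on the log2 scale, as a value of -0.74 (SE 0.34, limma, adjusted p = 0.931). The interval of the difference ran from -1.60 to 0.68 for Ccnb1, from -1.56 to 0.82 for Ccna2, from -0.999 to 2.09 for Ccnd3 and from -0.37 to 1.58 for Ccnd1. The calls of Ccnb1, Ccna2 and Ccnd1 in heat embryos and of Ccne2 in control embryos were thus not shown to differ between sire groups. The median interaction over all genes was -0.11.

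Differences between 2 genes of the same embryo depend on the scaling of that embryo only through the added 1, which weighs most on Ccnd3 where it is low or listed at 0. Log2(Ccnd3 + 1) less log2(Ccna2 + 1), in TPM, had a median of -3.04 in 4-cell control embryos (-6.44 to -1.18) and -2.99 in 4-cell heat embryos (-6.16 to -1.65). In morulae the median was -0.24 in control (-1.78 to 0.98) and -0.37 in heat embryos (-0.89 to 1.36). Ccnd3 thus exceeded Ccna2 in none of the 34 4-cell embryos, in 5 of 22 morula control and in 6 of 21 morula heat embryos, and the 4-cell and morula ranges overlap little. Ccnd3 less Ccnb1 moved likewise, from medians of -4.90 and -4.80 to -2.48 and -2.33. Ccna2 less Ccnb1 stayed between medians of -2.20 and -1.94 in all 4 groups.

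Levels were then compared among embryos of 1 group. After each group's mean was subtracted, all 36 pairs of the 9 tested genes had a positive Pearson's r over the 77 embryos, with a median of 0.56. Over all pairs of the 7149 genes at 1 TPM or more in at least 50% of embryos, 70.0% were positive and the median was 0.15, and the genes closest to Ccna2, Ccnb1 and Cdk1 were not among the 9 (below). In all 45 relations were computed, these 36 and each gene with the number of detected genes, and tested by 100000 permutations within groups. For Ccna2 and Ccnb1 r was 0.90 and Spearman's rho 0.84 (permutation p = 1e-05 each, the smallest the permutations can give, and adjusted p = 1.73e-05 and 1.88e-05). Without the 2 embryos farthest from the median in Ccna2 alone, r was 0.89. With all embryos, r was 0.93, 0.80, 0.93 and 0.90 within the 4 groups, so it held in each. The next highest were Ccna2 with Ccne1 at 0.88 (rho 0.85), Ccnb1 with Cdk1 at 0.85 (rho 0.76) and Ccnb1 with Ccnb2 at 0.83 (rho 0.78), all with the same permutation p. They were at 0.87, 0.84 and 0.82 without the 2 embryos farthest from the median in the first-named gene. Ccnd1, which lay near the lower limit of the data, had r of 0.17 to 0.43 to the other 8 over all embryos. Within the 4 groups its r differed: it was 0.50, -0.06, 0.59 and 0.08 with Ccnb1, and 0.71, 0.25, 0.31 and 0.21 with Ccne1. Ccnd1 with Ccne2, at r of 0.17 (rho 0.15, permutation p = 0.145, adjusted p = 0.145), was the 1 pair that did not pass by Pearson's r. By rho, Ccnd1 with Ccnb1, Ccnb2 and Cdk1 and Ccnb2 with Ccne2 did not pass either (permutation, adjusted p = 0.0739 to 0.088). Within 4-cell heat embryos some pairs lay below 0, the lowest Ccnb2 with Cdk2 (r = -0.10). The share of all gene pairs that would pass was not computed, so the number of pairs that passed is not a result about these genes.

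**Figure D3:**
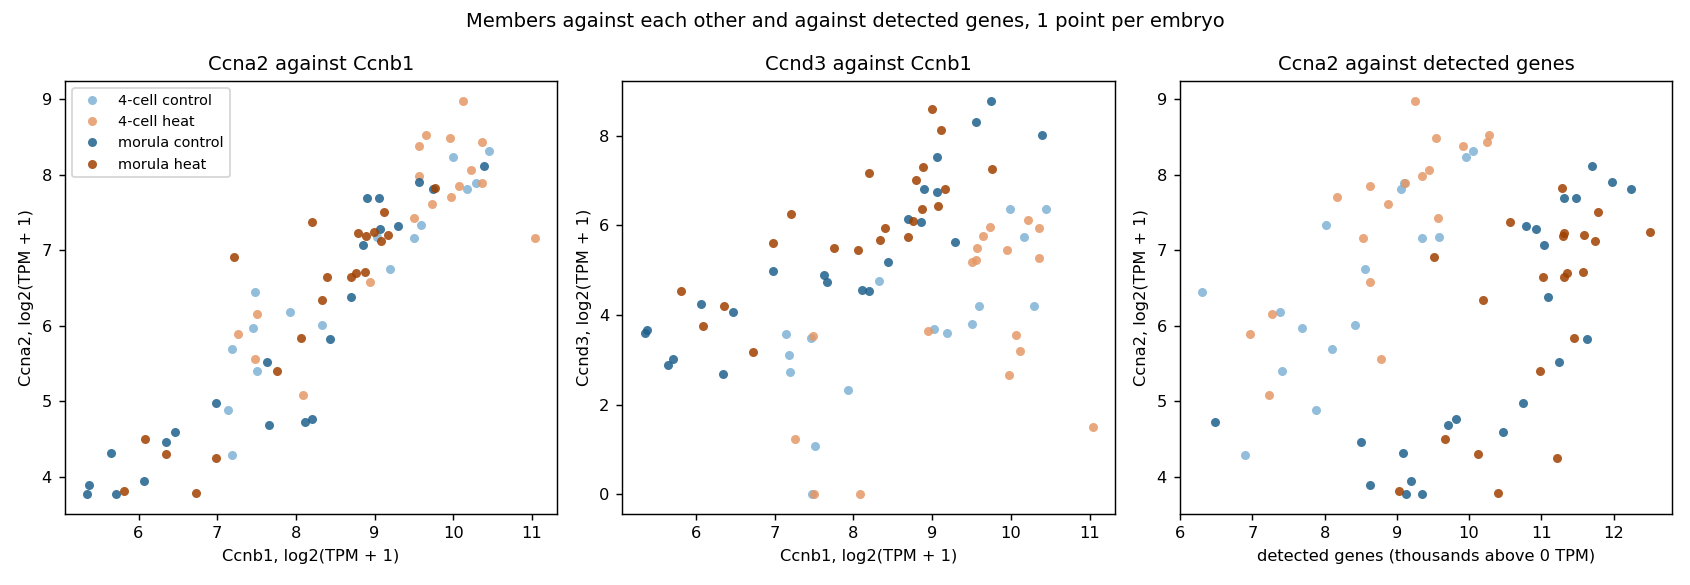
Ccna2 against Ccnb1, Ccnd3 against Ccnb1 and Ccna2 against detected genes, each gene as log2(TPM + 1), with 1 point per embryo coloured by group. Ccna2 and Ccnb1 lie along 1 line for all groups, while most morulae lie above 4-cell embryos in Ccnd3 at a given Ccnb1 and below them in Ccna2 at a given number of detected genes.

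The number of detected genes moved with the same axis. Its r with Ccnd3 was 0.78 (rho 0.78), with Cdk1 0.74 (rho 0.70) and with Ccna2 0.73 (rho 0.74), each with a permutation p of 1e-05 (adjusted p = 1.73e-05 for r). These r were 0.82, 0.78 and 0.78 without the 2 embryos farthest from the median in detected genes. Among the 7149 genes at 1 TPM or more in at least 50% of embryos, the median r with detected genes was 0.35 and 84.2% were positive. Ccnd3 stood at percentile 99.7 of these genes, Cdk1 at 98.1, Ccna2 at 97.5 and Ccnb1 at 96.5, while Ccnd1 stood at 40.8. Stage and heat values were also given above with detected genes as a covariate and without the embryos of under 7500. Detected genes are counted from the same TPM values and were more numerous in morulae. The covariate therefore cannot separate stage from detection, and stage values with it are descriptions.

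**Figure D4:**
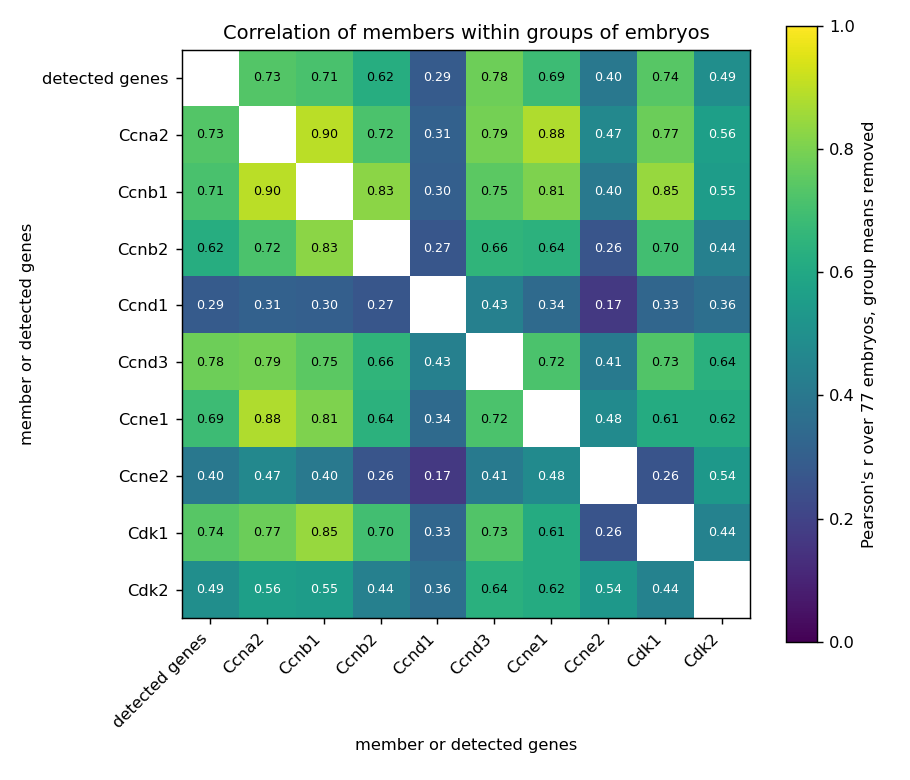
Pearson's r between the 9 tested genes and the number of detected genes over 77 embryos after group means were subtracted, from 0 (dark) to 1 (light). Ccna2, Ccnb1, Ccnb2, Ccnd3, Ccne1 and Cdk1 form a block between 0.61 and 0.90, and Ccnd1 and Ccne2 reach at most 0.54.

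The genes whose level followed a cyclin or kinase most closely across the 77 embryos, group means subtracted, are given as a description. For Ccna2 they were Atp5b (r = 0.96), Rsl24d1 (0.96) and Noc4l (0.95), and for Ccnb1 Psmd11, Cnbp and Eif4e (0.94 each). For Cdk1 they were C1qbp, Eif3m and Csnk1e (0.91 to 0.92), for Ccne1 Sae1, Kif22 and Cct3 (0.89 to 0.91), and for Ccnb2 Plin3, Etfa and Ociad1 (0.83 each). Ccnd3 was followed most closely by Cdc20 (0.87), the activator of the ligase that marks mitotic cyclins for destruction, then by Rbpms2 and Fam151a. Cdk2 had Stip1, Hspa8 and Nub1 (0.81 to 0.82), and Ccne2 had Tut1, Ddx5 and Yars (0.70 each). No gene reached 0.6 with Ccnd1. The likeness is over 7148 other genes and shares each embryo's library.

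The other parts of the cyclin and Cdk system were counted by 6 lists. In neither heat comparison nor in the interaction did any tested member pass with limma. For the stage comparisons the counts stand beside all genes, of which 27.2% were called higher and 18.9% lower in control embryos and 26.1% and 24.7% in heat embryos. The lists are short, and some members entered a test through 1 stage alone, in which case the direction follows the filter; these are named with their values as descriptions. From 4-cell to morula, 1 of 9 other cyclins was higher and 2 were lower in control embryos, and 1 was higher and 4 were lower in heat embryos. The higher one was Ccng1, a target of p53, at 2.08 in control embryos, where 4 of 16 4-cell embryos but 22 of 22 morulae reached 1 TPM. In heat embryos, where it passed the filter at both stages, Ccng1 rose by 1.16 (SE 0.38, limma, adjusted p = 0.00966). Ccnl1 fell in control embryos, at -0.92, and was at -0.32 in heat embryos (limma, adjusted p = 0.245). Ccnl2 was called lower in both sire groups, at -0.82 and -0.96. Ccnc and Ccnt1 fell in heat embryos, at -1.35 and -1.18, and were at -1.10 and -0.79 in control embryos without a call.

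Of 11 other cyclin-dependent kinases 1 was higher and 5 were lower in each sire group. Both Cdk9 and Cdk12, which act on RNA polymerase II in transcription, passed the filter at both stages and fell: Cdk9 was at -1.53 and -1.79, and Cdk12 at -1.34 and -1.64. Cdk8 also passed the filter at both stages and fell, at -0.94 and -1.66. Cdk5 was at 2.33 and 2.73 and entered the test through morulae alone, with 21 of 22 and 21 of 21 morulae at 1 TPM or more but 6 of 16 and 2 of 18 4-cell embryos. Cdk20, called lower in control embryos at -1.10, entered there through 4-cell embryos alone, with 7 of 22 morulae at 1 TPM or more.

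Of 8 genes for Cdk phosphorylation and small subunits, 1 was higher and 3 were lower in control and 1 was higher and 4 were lower in heat embryos. The small Cdk subunit Cks1b rose, at 0.88 and 0.56, and the phosphatase gene Cdc25a, which activates cyclin-dependent kinases, fell, at -1.32 and -0.89. Cdc25b, a phosphatase that activates Cdk1, was at -1.24 and -1.68 and entered through 4-cell embryos alone. Cdc25c fell in heat embryos, at -1.29, and was at -0.94 in control embryos without a call. Of the inhibitors, 2 of 4 tested were higher in control and 2 of 5 in heat embryos. They were Cdkn2c, at 1.84 and 1.78, and Cdkn2b, at 1.31 and 0.92, which block the kinases of D-type cyclins; both entered through morulae alone.

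Of 20 and 21 cyclin destruction genes 1 was higher and 7 were lower in control and 1 was higher and 6 were lower in heat embryos. Anapc7, a subunit of the anaphase-promoting complex, fell, at -1.15 and -1.82, as did Fbxo31, whose protein marks cyclin D1 for destruction, at -1.29 and -1.80. The higher gene in control embryos was Fzr1, at 1.33 (0.67 in heat embryos, not called). The higher gene in heat embryos was Anapc13, at 0.65 (0.38 in control embryos, not called). Of 8 and 9 Rb and E2f genes 2 were higher and 1 lower in control, and 2 higher and 3 lower in heat embryos. E2f5 was at -1.49 and -1.90 and entered through 4-cell embryos alone, and E2f6 was at 0.78 and 1.06 and entered through morulae alone. Tfdp2, called higher in control embryos at 0.59, also entered through morulae alone. All calls of this list in control embryos thus follow the filter. In heat embryos E2f4 rose by 1.18 (SE 0.39, limma, adjusted p = 0.0108) and E2f1 fell by 1.23 (SE 0.38, limma, adjusted p = 0.00602). Both passed the filter at each stage, and in control embryos they were at 0.60 and -0.98 without a call.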

How the data were processed

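As deposited by the authors, the table gives TPM of 23845 genes in 77 embryos. The submitters' processing notes name RSEM, Bowtie2 and Trimmomatic and the build mm10, but neither versions nor the step each served. The splitting of reads between near-identical transcripts is not stated. The sperm small RNA counts of the series were not used here. TPM keeps no depth, so no counting interval is given, and a fall of one gene's share can come with a rise of others.

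A gene was tested if at least 50% of the embryos in 1 or more of the compared groups had 1 TPM or more. After a log2(TPM + 1) transform, limma 3.58.1 in R 4.3.3 was run with a mean-variance trend, two-sided, with Benjamini-Hochberg adjustment over all genes tested and calls at an adjusted p under 0.05. Heat was compared with control within a stage, stage was compared within a sire group, and the interaction used all embryos. The procedure was tested on simulated data. All 10 genes are described in every comparison. From each of the 6 other lists the text gives the counts called in the stage comparisons. It names up to 2 genes each way with the largest called change in each sire group, and also Cdk20. A gene is named as most alike if it is among the 3 with the highest r and r is at least 0.6. The genes and lists were chosen with earlier results of these data known. Promoters and coordinates come from RefSeq tables of GRCm38.p6. Alternatives covered the pseudocount, the filter on low values, centring, ribosomal protein genes, detected genes as a covariate, array weights, 1 fit over all embryos, a replicate block and a fold limit; leaving out 1 morula control embryo or the embryos of under 7500 detected genes was chosen after seeing the data.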

Additional observations from a re-analysis of the deposited data

How the results depend on the processing

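No cyclin or kinase was called in either heat comparison or the interaction under any alternative run. In the stage comparison of control embryos the number called of 9 was 2, and it was 1 with a stricter filter (5 TPM), which removed Ccne2, 1 with a limit of 1 on the log2 change, which Ccne2 did not reach, 6 with centring and 6 with detected genes as a covariate. In heat embryos the number was 4, and it was 3 with the stricter filter, 5 with array weights and 6 with centring, with the covariate and without the embryos of under 7500 detected genes; Ccne1 and Cdk1 gained calls under each of these last 3, while Ccnd1 and Ccnd3 lost theirs under the covariate. The share of all genes called is not given here for each alternative. In the main fits it was 46.1% in control and 50.8% in heat embryos. The counts here, and those of the replicate block below, are therefore not a result about these genes. Over all genes, 1 fit over all embryos called 26 in the 4-cell heat comparison and 2 in that of morulae in place of 0, and the fold limit left 2811 of 4284 stage calls in heat embryos. Signs turned as follows, all without a call. For 4-cell heat, Ccnd1 was at 0.046 with a pseudocount of 0.1, and Ccnd3 at -0.086 with centring, -0.63 with the covariate and -0.064 with the replicate block. For morula heat under the covariate, Ccna2 was at -0.11, Ccnb1 at -0.24, Ccnb2 at -0.24, Ccne1 at -0.25, Cdk1 at -0.021 and Cdk2 at -0.21. For stage under the covariate, Ccnd1 was at -0.066 and Ccnd3 at -0.44 in control embryos, and Ccnd3 at -0.94 and Ccne2 at -0.088 in heat embryos. In heat embryos Ccne2 was also at -0.0078 with centring and Ccnb2 at 0.030 with array weights. In the interaction Cdk1 was at 0.10 with centring, 0.016 without ribosomal protein genes, 0.0024 with the replicate block and 0.021 without embryos under 7500 detected genes, and Cdk2 was at 0.16 without those embryos. The cause was not tested.

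Replicate numbers do not pair these embryos: same-numbered embryos correlated above 0.1 in 2 of 16, 6 of 21, 4 of 16 and 4 of 18 pairs of the 4 comparisons, and at most 2 embryos correlated best with their own number. With the numbers as a replicate block, 0, 0, 2 and 6 genes were called in these comparisons and 0 in the interaction; the 6 add Ccne1 and Cdk2.

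Unknown depth, unrecorded parentage and the spread between embryos limit these data, and for genes near 0 TPM, such as Ccne2 and Ccnd1, the pseudocount sets much of the size of a change: Ccne2 in the control stage comparison was at 0.82 with 1 and at 2.01 with 0.1.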

Other observations

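The balance of the B-type cyclins Ccnb1 and Ccnb2 had its highest median in 4-cell heat embryos, a difference that was not tested. Log2(Ccnb1 + 1) less log2(Ccnb2 + 1) had a median of 3.25 there (1.76 to 4.73, n = 18), beside 2.37 in 4-cell control (1.55 to 3.67, n = 16), 2.17 in morula control (-0.19 to 3.08, n = 22) and 2.09 in morula heat embryos (1.06 to 3.06, n = 21). The 4 ranges overlap. Ccnb1 exceeded Ccnb2 in every embryo but 1 morula control. Ccnb1 less Cdk1 had medians of 1.34, 1.71, 1.19 and 0.92 in the same order of stage and sire.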
